A study of Mus musculus with 15 samples.

Results

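Type I interferon-stimulated genes were followed across resting and polarized mouse macrophages. The set was a list of 39 genes known to answer type I interferon, chosen with earlier results of these data known. Counts of its members beside those of all genes therefore describe the set and are not an independent test. Each gene was read by the probe set that named it alone and had the highest mean over 15 arrays. All 39 had such a probe set, of 18193 genes with one on the array, and all 39 passed the filter on low values that left 13703 genes to test.

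Bone marrow cells of mice had been cultured for 7 days with M-CSF, under which they become macrophages, and total RNA was read on 1 array per sample, with 3 samples in each of 5 groups. M0 cells were untreated, M1 cells were polarized with E. coli lipopolysaccharide (LPS) and interferon-gamma, and M2 cells with IL-4 and IL-13. Another group of M2 cells also received nutlin-3a, which frees p53 from its inhibitor MDM2. The last group of M2 cells received 10058F4 instead, which keeps MYC from pairing with MAX. The labels speak of biological replicates without naming separate mice or cultures. The p-values therefore measure the spread among these samples alone, which may be technical. The sources used here give no strain, dose, treatment time or vehicle.

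Type I interferons, chiefly interferon-beta and the interferon-alphas, are secreted by cells that sense viral or bacterial molecules. They bind the receptor formed by Ifnar1 and Ifnar2, whose kinases switch on a complex holding IRF9 that binds interferon-stimulated response elements near the start of antiviral genes. Macrophages make interferon-beta when LPS engages TLR4, and even untreated macrophages keep a low level of this signalling. Many of the same genes also answer interferon-gamma, which acts at gamma-activated sites.

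The start regions of the members whose level moved most between M0 and M2 cells are printed to show what such an element looks like in these genes. Each window runs from 250 bases before to 50 bases after a RefSeq start on GRCm38.p6, 5′ to 3′ on the strand of the gene, and capitals mark each match to the core of the response element, GAAANNGAAA on one strand or TTTCNNTTTC on the other. Ifit1 (chr19:34640639-34640938, plus strand), Ifit3 (chr19:34583279-34583578, plus strand), Ifit1bl1 (chr19:34601919-34602218, minus strand) and Cmpk2 (chr12:26468965-26469264, plus strand) had the largest differences in M2 cells among members with a window, and Dtx3l (chr16:35938978-35939277, minus strand) had the smallest.
Ifit1: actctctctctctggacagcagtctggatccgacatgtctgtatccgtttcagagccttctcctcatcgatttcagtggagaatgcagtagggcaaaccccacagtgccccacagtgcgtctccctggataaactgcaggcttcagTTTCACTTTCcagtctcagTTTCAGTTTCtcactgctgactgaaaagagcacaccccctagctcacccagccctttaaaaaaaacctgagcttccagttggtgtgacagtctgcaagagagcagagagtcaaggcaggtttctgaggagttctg
Ifit3: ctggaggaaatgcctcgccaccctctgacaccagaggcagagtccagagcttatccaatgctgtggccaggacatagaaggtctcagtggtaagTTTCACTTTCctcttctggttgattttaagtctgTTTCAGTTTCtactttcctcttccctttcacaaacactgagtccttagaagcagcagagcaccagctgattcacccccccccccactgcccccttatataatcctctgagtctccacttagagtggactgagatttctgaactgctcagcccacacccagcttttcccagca
Ifit1bl1: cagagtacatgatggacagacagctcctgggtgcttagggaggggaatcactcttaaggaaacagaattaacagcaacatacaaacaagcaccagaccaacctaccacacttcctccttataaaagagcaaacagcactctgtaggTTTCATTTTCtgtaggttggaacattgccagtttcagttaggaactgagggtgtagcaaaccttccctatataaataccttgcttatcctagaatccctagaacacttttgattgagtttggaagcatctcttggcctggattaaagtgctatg
Cmpk2: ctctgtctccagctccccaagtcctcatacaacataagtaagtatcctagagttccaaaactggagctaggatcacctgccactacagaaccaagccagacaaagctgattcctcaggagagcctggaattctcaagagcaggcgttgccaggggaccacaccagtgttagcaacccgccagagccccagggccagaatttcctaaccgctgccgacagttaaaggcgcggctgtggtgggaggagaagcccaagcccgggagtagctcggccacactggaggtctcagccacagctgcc
Dtx3l: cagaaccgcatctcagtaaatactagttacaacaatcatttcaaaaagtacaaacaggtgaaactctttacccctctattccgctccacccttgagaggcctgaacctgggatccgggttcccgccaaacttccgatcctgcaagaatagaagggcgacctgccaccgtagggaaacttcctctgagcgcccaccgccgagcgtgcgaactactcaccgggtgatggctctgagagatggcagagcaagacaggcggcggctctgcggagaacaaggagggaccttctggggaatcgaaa
The Ifit1 window held 2 matches, beginning 104 and 85 bases before the start, and that of Ifit3 held 2, beginning 156 and 122 bases before it. The Ifit1bl1 window held 1, beginning 104 bases before the start, and a window at another listed start of that gene held the same letters. Neither the Cmpk2 nor the Dtx3l window held a match, which says only that these letters are not in those windows.

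Of the 29 members with a window in the table, 13 (44.8%) held the response element core in at least 1 window, against 3.99% of all 27025 genes with one. They were Ifit1, Ifit3, Ifit1bl1, Oas1a, Oas3, Rsad2, Ddx58, Ifih1, Trim30a, Eif2ak2, Bst2, Ifitm3 and Trim21. The core of the gamma-activated site, TTCNNNGAA on either strand, was in the windows of 8 of the 29 (27.6%), against 9.55% of all genes. In Ifitm3, Bst2, Oas1a and Eif2ak2 both cores were present. The letters of the cores overlapped by some bases in Ifitm3 and Bst2. Mx1, Mx2, Oas2, Usp18, Dhx58, Zbp1, Parp9, Parp14, Rtp4 and Tor3a had no window in the table.

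Values below are on the log2 scale as normalized by the authors with RMA, where a difference of 1 is a 2-fold change, and levels are compared only within a gene. Precision is limited by the number of arrays, 3 in each group. Adjusted p-values come from limma with Benjamini-Hochberg adjustment over the 13703 genes of a comparison, and a member was called higher or lower at an adjusted p under 0.05. Arrays of a group correlated with r of 0.989 to 0.997 across probe sets. Within M0, replicate 1 lay above its group mean for all 39 members, with a median deviation of 0.22. Among the 10058F4 arrays replicate 1 lay above its group mean for 37 members, and among the M2 arrays replicate 1 did so for 32 and replicate 2 lay below it for 34. Genes that mark macrophages were above the 40th percentile of the array on all arrays for 7 of 7 with a probe set. Their summed linear level was 41980 to 44190 in M1 and 52500 to 56290 in the other groups. RNA integrity was read as the excess of the 3′ over the 5′ control probe set of beta-actin, which was 0.132 to 0.221 in M1, 0.29 to 0.395 in M0, 0.359 to 0.416 in M2, 0.427 to 0.492 with nutlin-3a and 0.468 to 0.516 with 10058F4. The same excess for Gapdh was -0.193 to -0.124 in M1 and -0.309 to -0.248 in the other groups, among which it overlapped. In M1 it was thus above the other groups, where that of beta-actin was below them, and the rise of the latter with both agents was not seen for Gapdh. The part of either in the members' differences was not tested.

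**Figure D1:**
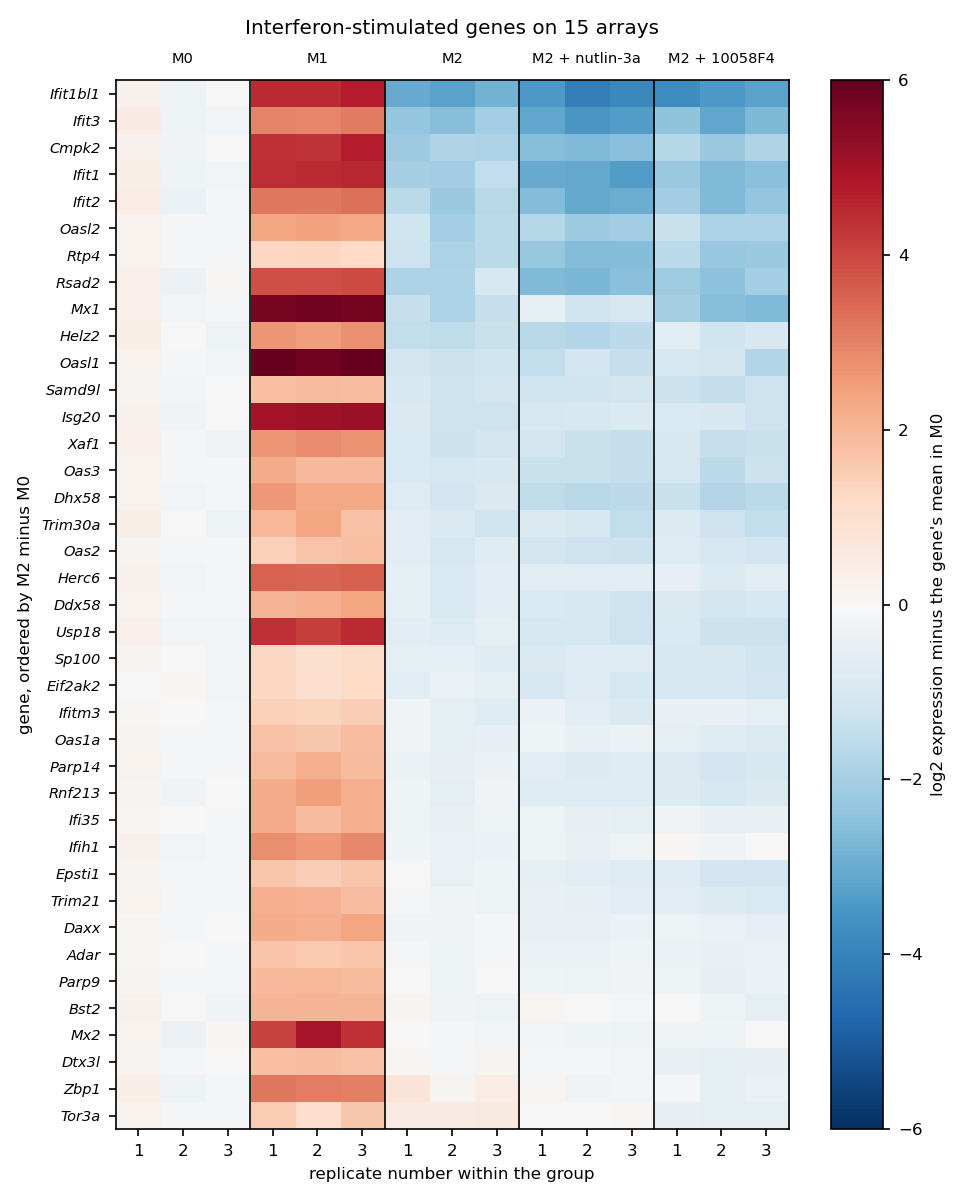
Heat map of log2 expression minus the gene's mean in M0 for the 39 interferon-stimulated genes (vertical axis, ordered by the difference between M2 and M0) on 15 arrays (horizontal axis, 3 replicates in each of 5 groups). All 39 genes are above their M0 mean on the M1 arrays. The IFIT genes, Cmpk2, Rsad2 and Rtp4 are among those furthest below that mean on the arrays of the 3 M2 groups.

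The first question was how the interferon-stimulated genes answered LPS with interferon-gamma. All 39 were called higher in M1 than in M0 cells, against 33.6% of all genes tested, and on the log2 scale the differences ran from 1.10 for Sp100 to 5.93 for Oasl1. Each was at least 2-fold higher, against 5.71% of genes, and for each the M1 arrays lay above all M0 arrays, against 32.9%. The members' median difference was 2.26 and that of all genes tested was -0.005. Centring the arrays on the median of the tested genes moved the latter to 0.32 and the share called higher to 55.6%, and the smallest difference of a member was then 1.43. M1 was the group with the highest mean for 39 of 39 members, a count that was not made for all genes tested.

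Among the IFIT proteins, which bind viral RNA ends, all 4 members rose, by 3.01 to 4.55. Ifit1bl1 read 8.34, 7.80 and 8.11 in M0 replicates 1 to 3 and 12.55, 12.55 and 12.79 in M1. Every M1 array was far above every M0 array (log2 difference 4.55, SE 0.19, adjusted p = 4.05e-11). Ifit1, which binds RNA that lacks the host's cap methylation, read 9.16, 8.49 and 8.61 in M0 and 13.20, 13.24 and 13.28 in M1. All of its M1 arrays lay above M0, and the difference was 22.4-fold (log2 difference 4.48, SE 0.18, adjusted p = 2.69e-11).

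The Mx proteins are dynamin-like GTPases that trap viral nucleocapsids, and both rose in M1 cells. Mx1 read 7.45, 6.97 and 7.01 in M0 and 12.82, 12.92 and 12.91 in M1, a 53.5-fold difference with no overlap (log2 difference 5.74, SE 0.20, adjusted p = 9.77e-12). Mx2 had a difference of 4.47 (SE 0.19). The oligoadenylate synthetase family is named for enzymes that make the messenger that activates RNase L, although not every member does so. Of its members here 5 of 5 rose. Oasl1, a family member known in mice to restrain translation of Irf7, read 7.08, 6.79 and 6.70 in M0 and 12.81, 12.63 and 12.91 in M1. The M1 arrays stood 60.9-fold above M0 (log2 difference 5.93, SE 0.16, adjusted p = 6.38e-13), while the other members of the family rose by 1.66 to 2.37.

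Enzymes that act on nucleotides and RNA rose as well, 5 of 5, with a median of 3.88. Isg20, an exonuclease that degrades single-stranded RNA, read 6.92, 6.47 and 6.63 in M0 and 11.66, 11.76 and 11.84 in M1, without overlap (log2 difference 5.08, SE 0.13, adjusted p = 3.55e-13). Rsad2 (viperin), which turns CTP into a chain terminator of viral polymerases, and Cmpk2, a mitochondrial nucleotide kinase whose gene is the neighbour of Rsad2 on chromosome 12, had differences of 3.88 (SE 0.20) and 4.48 (SE 0.15). Eif2ak2 (PKR), the kinase that stops translation on sensing double-stranded RNA, rose by less, 1.15 (SE 0.10).

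All 4 sensors of foreign nucleic acid rose: Ddx58 (RIG-I) by 2.19, Ifih1 (MDA5) by 2.76, Dhx58 (LGP2) by 2.41 and Zbp1 by 3.09. Zbp1, which senses Z-form nucleic acid and can start necroptosis, read 8.15, 7.47 and 7.67 in M0 and 10.95, 10.82 and 10.79 in M1. Its lowest M1 array was above its highest M0 array (log2 difference 3.09, SE 0.18, adjusted p = 1.29e-09).

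In the ubiquitin and ISG15 system 5 of 5 rose, led by Usp18, the protease that removes ISG15 and damps signalling at the type I receptor. Its levels were 8.71, 8.25 and 8.27 in M0 and 12.81, 12.56 and 12.89 in M1, which did not overlap (log2 difference 4.34, SE 0.14, adjusted p = 3.01e-12). Herc6, the ligase that attaches ISG15 in mice, rose by 3.53. Rnf213, a very large ubiquitin ligase, rose by 2.31, and Trim21, a cytosolic antibody receptor and ubiquitin ligase, by 2.04.

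Smaller rises were those of the PARP9 and DTX3L pair, which together modify histones and viral proteins, of Parp14, an ADP-ribosyltransferase, and of the membrane and nuclear body proteins. Parp14 read 10.65, 10.31 and 10.37 in M0 and 12.34, 12.64 and 12.35 in M1 (log2 difference 2.0, SE 0.11, adjusted p = 1.1e-09), and Parp9 and Dtx3l rose by 1.94 and 1.80. Bst2 (tetherin), which holds budding virions at the cell surface, read 10.69, 10.39 and 10.18 in M0 and 12.48, 12.48 and 12.44 in M1 (log2 difference 2.05, SE 0.15, adjusted p = 1.83e-08). In both genes each M1 array exceeded each M0 array. Daxx, a histone chaperone of PML nuclear bodies, read 8.33, 8.19 and 8.26 in M0 and 10.47, 10.46 and 10.63 in M1 and did not overlap either (log2 difference 2.26, SE 0.07, adjusted p = 1.75e-12). Xaf1, an antagonist of the apoptosis inhibitor XIAP, led the remaining genes with 10.24, 9.85 and 9.71 in M0 and 12.59, 12.75 and 12.63 in M1, again apart (log2 difference 2.72, SE 0.14, adjusted p = 5.52e-10). All 39 rises in M1 cells were called with each array of the compared groups left out in turn.

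**Figure D2:**
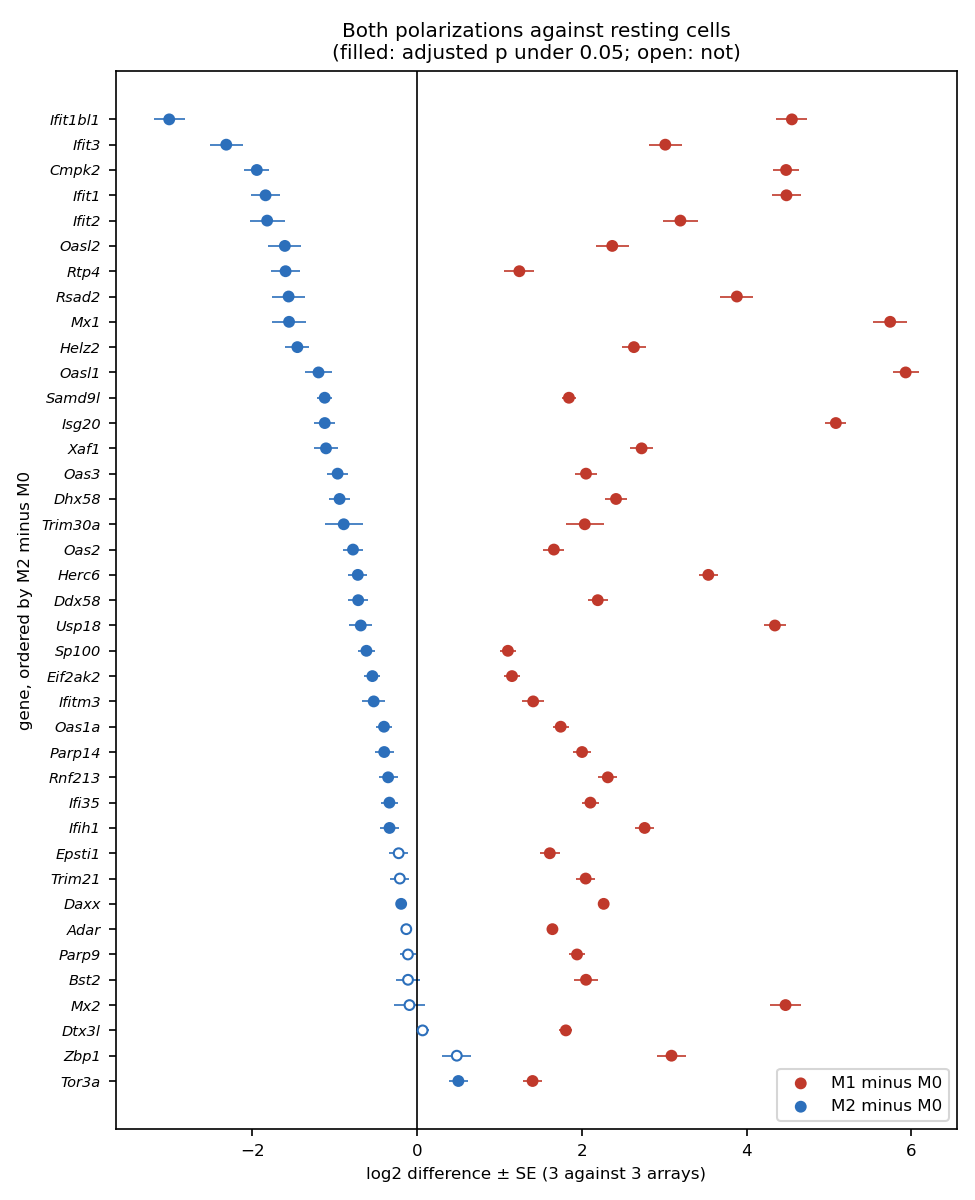
Log2 difference ± SE (horizontal axis) of M1 against M0 and of M2 against M0 for each interferon-stimulated gene (vertical axis, ordered by the M2 difference), from 3 against 3 arrays that share the M0 arrays. Filled points have an adjusted p under 0.05. Every M1 point lies at 1.10 or above, and 36 of 39 M2 points lie below 0.

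The next question was what IL-4 and IL-13 did to the same genes, relative to the same M0 arrays. In M2 cells 30 members were called lower, 1 was called higher and 8 were not called. Of all genes tested, 18.4% were called lower and 12.7% higher. On 31 members every M2 array was below every M0 array, against 26.4% of genes, and 14 members were at least 2-fold lower, against 1.6%. The median difference was -0.72, against -0.004 for all genes. The shares of all genes called lower and higher were 14.4% and 15.3% with quantile normalization repeated and 13.1% and 20.4% with arrays centred on the median of the tested genes.

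The IFIT genes fell most as a family, 4 of 4, by 1.82 to 3.01. Ifit1bl1 read 5.08, 4.88 and 5.26 in M2 cells, against 7.80 or more on every M0 array, an 8.06-fold lower level (log2 difference -3.01, SE 0.19, adjusted p = 4.47e-08). These M2 values were not far above the 40th percentile of the arrays (4.34 to 4.52), so this difference is not an exact size. Ifit1 read 6.77, 6.69 and 7.29 and lay wholly below M0 as well (log2 difference -1.84, SE 0.18, adjusted p = 2.78e-06). Ifit3 read 10.60, 9.83 and 9.94 in M0 and 7.78, 7.55 and 8.08 in M2, and Ifit2 fell by 1.82. Every Ifit3 value in M2 was below its lowest value in M0 (log2 difference -2.32, SE 0.20, adjusted p = 1.08e-06).

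The Mx genes differed from each other in how M2 cells compared with M0. Mx1 read 5.76, 5.26 and 5.75 in M2, below all its M0 arrays (log2 difference -1.56, SE 0.20, adjusted p = 5.05e-05). Mx2 read 6.69, 6.12 and 6.58 in M0 and 6.48, 6.35 and 6.28 in M2, which overlapped (log2 difference -0.09, SE 0.19, adjusted p = 0.746, 95% interval of the difference -0.49 to 0.31). All 5 oligoadenylate synthetases fell. Oasl2 fell most, from 8.99, 8.68 and 8.65 in M0 to 7.59, 6.72 and 7.19 in M2 with no overlap (log2 difference -1.61, SE 0.20, adjusted p = 3.26e-05). Oas1a fell least, -0.40 (SE 0.10).

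Among the nucleotide and RNA enzymes 4 of 5 fell. Cmpk2 read 8.67, 8.20 and 8.39 in M0 and 6.24, 6.62 and 6.56 in M2, all M2 arrays being lower (log2 difference -1.95, SE 0.15, adjusted p = 4.04e-07). Its second probe set gave a smaller difference, -0.87. Rsad2 read 10.47, 9.82 and 10.22 in M0 and 8.33, 8.34 and 9.16 in M2, also without overlap (log2 difference -1.56, SE 0.20, adjusted p = 3.9e-05). Isg20 fell by 1.12 and Eif2ak2 by 0.54. Adar, which edits adenosine to inosine in double-stranded RNA, had a difference of -0.13 (SE 0.07) and was not called. It was called lower on the mean of its probe sets (adjusted p = 0.015) and on a probe set without a shared-transcript suffix (adjusted p = 0.0236).

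Of the sensors, Dhx58, Ddx58 and Ifih1 fell. Dhx58 read 8.07, 7.72 and 7.82 in M0 and 7.08, 6.72 and 6.99 in M2, with all M2 arrays lower (log2 difference -0.94, SE 0.13, adjusted p = 6.74e-05). Ddx58 fell by 0.72, although 1 of its 3 probe sets had a positive difference, 0.16. The call of Ifih1 (log2 difference -0.34, SE 0.11, adjusted p = 0.0365) was lost without M0 replicate 1 or without any single M2 array, with adjusted p up to 0.17. Zbp1 moved the other way without reaching the threshold: it read 8.56, 7.95 and 8.23 in M2 and overlapped M0 (log2 difference 0.48, SE 0.18, adjusted p = 0.0531). It was called higher without M0 replicate 1 or without M2 replicate 2, with adjusted p down to 0.00902, and with the replicate number as a block, with adjusted p = 0.00156. It was also called with the low-value filter at the 60th percentile (adjusted p = 0.0458), with quantile normalization repeated (0.0317) and with arrays centred on the median of the tested genes (0.0353).

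In the ubiquitin and ISG15 system 4 of 5 fell. Trim30a, known to restrain NF-kappaB signalling downstream of TLRs, read 10.37, 9.97 and 9.68 in M0 and 9.39, 9.16 and 8.79 in M2 and did not overlap (log2 difference -0.89, SE 0.23, adjusted p = 0.00909). Usp18 fell by 0.69 and Herc6 by 0.72. Rnf213 (log2 difference -0.35, SE 0.11, adjusted p = 0.0302) lost its call without M0 replicate 1, M0 replicate 3 or M2 replicate 2, with adjusted p up to 0.136. Trim21 (log2 difference -0.21, SE 0.11, adjusted p = 0.182) was called lower only with the replicate block, with adjusted p = 0.0255.

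Parp9 and Dtx3l, whose genes lie head to head on chromosome 16, were not called in M2 cells. Dtx3l read 9.78, 9.50 and 9.58 in M0 and 9.75, 9.55 and 9.76 in M2, which overlapped (log2 difference 0.07, SE 0.08, adjusted p = 0.58, 95% interval -0.11 to 0.24). Parp14 read 10.10, 9.95 and 10.07 in M2, just below its M0 arrays (log2 difference -0.40, SE 0.11, adjusted p = 0.0149). Its call was lost without M0 replicate 1 or M2 replicate 2, with adjusted p up to 0.0739. Ifitm3, which keeps viruses from fusing with endosomal membranes, read 11.93, 11.91 and 11.81 in M0 and 11.67, 11.29 and 11.09 in M2, all lower (log2 difference -0.53, SE 0.14, adjusted p = 0.0094). Bst2 was not called (log2 difference -0.11, SE 0.15, adjusted p = 0.617). Of the nuclear body genes, Sp100 read 8.33, 8.19 and 8.0 in M0 and 7.64, 7.60 and 7.43 in M2, apart from each other (log2 difference -0.62, SE 0.10, adjusted p = 0.000368). Daxx fell by 0.19, and its call was lost without M0 replicate 1 or 3 or M2 replicate 1 or 2, with adjusted p up to 0.143.

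Of the remaining genes, Rtp4, a chaperone of G-protein-coupled receptors, fell most, from 11.88, 11.55 and 11.53 in M0 to 10.41, 9.75 and 10.02 in M2, which lay well apart (log2 difference -1.60, SE 0.18, adjusted p = 1.33e-05). Helz2, a helicase known as a coactivator of nuclear receptors, fell by 1.45, Samd9l, a growth-restraining antiviral factor, by 1.12 and Xaf1 by 1.11. Ifi35 (log2 difference -0.34, SE 0.10, adjusted p = 0.0199) lost its call without M0 replicate 1 or M2 replicate 2, with adjusted p up to 0.088. Epsti1 was not called (log2 difference -0.23, SE 0.12, adjusted p = 0.17) except with the replicate block, with adjusted p = 0.0216. Tor3a, a torsin ATPase of the endoplasmic reticulum, went against the rest. It read 10.26, 9.98 and 9.97 in M0 and 10.57, 10.54 and 10.59 in M2, with all M2 arrays higher (log2 difference 0.50, SE 0.11, adjusted p = 0.00407), and this call held with each array left out. Leaving out M0 replicate 1 or M2 replicate 2 left 25 members called lower. With quantile normalization repeated the calls of Daxx, Ifih1, Rnf213 and Parp14 were lost, with adjusted p of 0.244, 0.0935, 0.0874 and 0.052. Of the 30, 25 were called lower with every array left out in turn.

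Set against M2 directly, M1 cells were higher in 39 of 39 members, against 28.1% of genes tested, and by at least 2-fold in 38, against 6.47%. The median difference was 2.93 and the range 0.90 to 7.56. With arrays centred on the median of the tested genes 50.3% of all genes were called higher, and the median of all genes was 0.24. Ifit1bl1 was 189-fold higher in M1 (log2 difference 7.56, SE 0.19, adjusted p = 2.28e-13) and Mx1 157-fold (log2 difference 7.30, SE 0.20, adjusted p = 7.77e-13). The M2 values of Ifit1bl1 were not far above the 40th percentile of the arrays (4.34 to 4.52), so its fold is not an exact size. Tor3a was the member under 2-fold (log2 difference 0.90, SE 0.11, adjusted p = 6.64e-06): its M1 arrays read 11.59, 11.14 and 11.67, each above all M2 arrays.

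Members with and without the response element core in their window were set side by side. In M2 against M0, 11 of 13 with the core and 13 of 16 without it were called lower, with medians of -0.72 and -0.91. In M1 against M0 the medians were 2.05 and 2.34, and all members with a window rose. With nutlin-3a 5 of 13 and 5 of 16 were called lower, and with 10058F4 also 5 of 13 and 5 of 16. No difference between these subsets was tested.

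The p53 activator nutlin-3a was compared with M2 alone to see how the genes moved in treated M2 cells. Of the 39 members 15 were called lower, none was called higher by limma and 24 were not called. At an unadjusted p under 0.05, 1 member was higher and 22 were lower, against 16.7% and 12.3% of all genes. At the adjusted threshold 5.85% of all genes tested were called lower and 9.56% higher, shares that became 7.57% and 8.07% with quantile normalization repeated and 9.63% and 6.76% with arrays centred on the median of the tested genes. The 15 were Ifit1, Ifit2, Ifit3, Ifit1bl1, Oas2, Rsad2, Cmpk2, Dhx58, Zbp1, Rtp4, Eif2ak2, Tor3a, Epsti1, Daxx and Rnf213. On 23 members every treated array lay below every M2 array, against 17% of genes. The median difference was -0.32, against 0.009 for all genes, and 3 members were at least 2-fold lower, against 0.518%.

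All 4 IFIT genes fell with nutlin-3a. Ifit1 read 5.71, 5.68 and 5.40 with nutlin-3a, against 6.69 or more on every M2 array, a 2.49-fold lower level (log2 difference -1.32, SE 0.18, adjusted p = 0.000244). Ifit2, which binds AU-rich RNA, read 8.82, 8.22 and 8.78 in M2 and 7.82, 7.34 and 7.43 with nutlin-3a, and Ifit3 read 7.00, 6.64 and 6.79. In both genes the treated arrays were lower throughout, and the differences were -1.08 (SE 0.21) and -0.99 (SE 0.20). Ifit1bl1 read 4.66, 3.93 and 4.23, and only replicate 1 was above the 40th percentile of its array, so its difference of -0.80 is not an exact size. Without nutlin-3a replicate 2 that call was lost (adjusted p = 0.0572).

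Rsad2 read 7.51, 7.42 and 7.65 with nutlin-3a, all lower than M2 (log2 difference -1.08, SE 0.20, adjusted p = 0.0024). Its neighbour Cmpk2 read 5.88, 5.77 and 5.92 and did not overlap M2 either (log2 difference -0.61, SE 0.15, adjusted p = 0.0156), with a difference of -0.93 for its second probe set. The Cmpk2 call was lost without nutlin-3a replicate 2, M2 replicate 2 or M2 replicate 3, with adjusted p up to 0.0633. Dhx58 read 6.34, 6.21 and 6.28, wholly below M2 (log2 difference -0.65, SE 0.13, adjusted p = 0.00358), and Rtp4 read 9.38, 9.07 and 9.03, likewise (log2 difference -0.90, SE 0.18, adjusted p = 0.00436). The Dhx58 call was lost on the mean of its probe sets (-0.35, adjusted p = 0.0522), 1 of which had a positive difference of 0.13. Ifit1, Ifit2, Ifit3, Rsad2, Dhx58 and Rtp4 were the members called lower with each array left out in turn.

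The other calls with nutlin-3a were lost when single arrays were left out. Oas2 read 7.63, 7.26 and 7.55 in M2 and 7.18, 7.01 and 6.97 with nutlin-3a (log2 difference -0.42, SE 0.13, adjusted p = 0.0364), lower on all arrays, and its call was lost without M2 replicate 1 or 3 or nutlin-3a replicate 2 or 3, with adjusted p up to 0.148. Rnf213 read 9.38, 9.38 and 9.37, again below M2 (log2 difference -0.43, SE 0.11, adjusted p = 0.022), and was not called with any left-out array except M2 replicate 2, nor on the mean of its probe sets, the second of which differed by 0.14. Zbp1 (log2 difference -0.58, SE 0.18, adjusted p = 0.0402) was likewise called only without M2 replicate 2. Daxx read 8.05, 8.03 and 8.12 in M2 and 7.82, 7.81 and 7.90 with nutlin-3a (log2 difference -0.22, SE 0.07, adjusted p = 0.0403). It did not overlap, but its call was lost with any of 6 arrays left out, with adjusted p of 0.0524 to 0.128. Eif2ak2 lost its call without nutlin-3a replicate 1 or 3 or M2 replicate 2, with adjusted p up to 0.0656. Tor3a lost it without nutlin-3a replicate 1 or 2 or M2 replicate 1 or 3, with adjusted p up to 0.0636. Epsti1 lost it without nutlin-3a replicate 2 or 3 or M2 replicate 1 or 3, with adjusted p up to 0.118. The count of members called lower was 9 without M2 replicate 1, 8 without M2 replicate 3 and 7 without nutlin-3a replicate 2. It was 10 without nutlin-3a replicate 1 or 3. On the mean of a gene's probe sets the calls of Eif2ak2, Epsti1 and Zbp1 were lost too, with adjusted p of 0.0586, 0.136 and 0.0553.

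Members not called with nutlin-3a included Mx1, which read 6.61, 5.93 and 6.13, above all its M2 arrays (log2 difference 0.63, SE 0.20, adjusted p = 0.0513). It was called higher without nutlin-3a replicate 2 (adjusted p = 0.0422) and, as a separate alternative, with the replicate block (adjusted p = 0.0103). It was also called higher with the filter at the 60th percentile (0.0431) and when each array's own median was subtracted (0.0373). The block also called Oas3, Usp18, Parp14, Trim21 and Adar lower, which made 20 lower and 1 higher, against 7.39% and 11.2% of genes. Parp14 read 9.81, 9.62 and 9.67, below all M2 arrays (log2 difference -0.34, SE 0.11, adjusted p = 0.0548). Bst2 read 10.56, 10.44 and 10.34 and overlapped M2 (log2 difference 0.14, SE 0.15, adjusted p = 0.592, 95% interval -0.18 to 0.46). Oasl1, Isg20 and Herc6 had differences of -0.13, 0.15 and 0.05 and were not called.

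**Figure D3:**
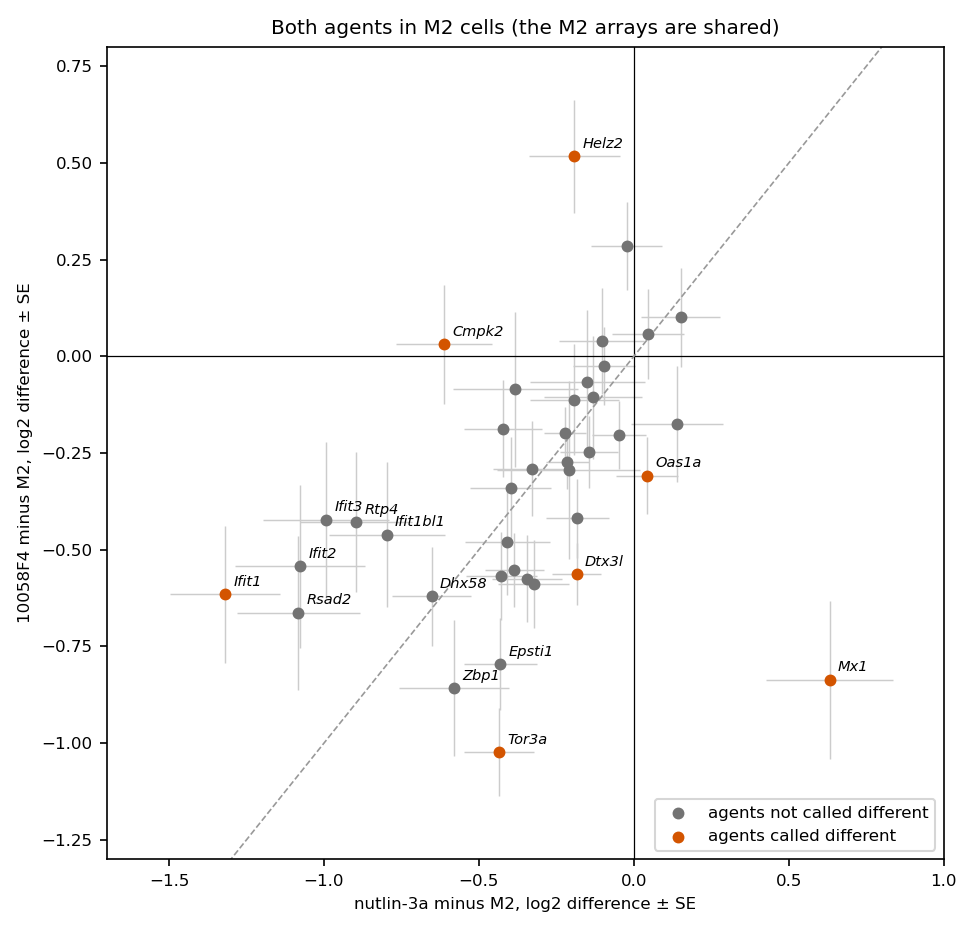
Log2 difference ± SE of nutlin-3a against M2 (horizontal axis) and of 10058F4 against M2 (vertical axis) for the 39 interferon-stimulated genes, from 3 arrays per group that share the M2 arrays. The 7 genes called different between the agents are coloured, among them Mx1 at 0.63 and -0.84 and Tor3a at -0.44 and -1.02.

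The MYC inhibitor 10058F4 was compared with the same M2 arrays, so the differences of the agents from M2 share 3 arrays. With 10058F4 16 members were called lower, 1 higher and 22 were not called. Of all genes tested 10.2% were called lower and 10.6% higher. The 16 were Ifit1, Mx1, Oas1a, Rsad2, Usp18, Dhx58, Zbp1, Parp14, Dtx3l, Eif2ak2, Trim21, Tor3a, Epsti1, Sp100, Rnf213 and Adar. On 19 members every treated array lay below every M2 array, against 22.2% of genes. The median difference was -0.31, against -4e-04 for all genes, and 1 member was at least 2-fold lower, against 0.788%.

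Tor3a changed most. It read 10.57, 10.54 and 10.59 in M2 and 9.57, 9.55 and 9.52 with 10058F4, a 2.03-fold fall that took all arrays below M0 as well as M2 (log2 difference -1.02, SE 0.11, adjusted p = 2.17e-05). Its level with nutlin-3a, 10.11, 10.11 and 10.18, lay between the other M2 groups (log2 difference -0.44, SE 0.11, adjusted p = 0.0196). Mx1 read 5.17, 4.58 and 4.50 with 10058F4, all below M2 (log2 difference -0.84, SE 0.20, adjusted p = 0.00934). Its values of 4.58 and 4.50 were close to the 40th percentile of the arrays (4.34 to 4.52), so this difference is not an exact size.

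Zbp1 read 7.63, 7.17 and 7.36 with 10058F4, below M2 on all arrays (log2 difference -0.86, SE 0.18, adjusted p = 0.00308), and Dhx58 read 6.55, 6.11 and 6.27, likewise (log2 difference -0.62, SE 0.13, adjusted p = 0.00311). Ifih1 went the other way: it read 9.08, 8.97 and 9.01 in M2 and 9.44, 9.15 and 9.33 with 10058F4. Those arrays did not overlap, but the difference was not called (log2 difference 0.29, SE 0.11, adjusted p = 0.0943) except with the replicate block (adjusted p = 0.0217) or on the 6 arrays alone (adjusted p = 0.0356).

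Dtx3l and Parp14 fell with 10058F4, and Parp9 was not called. Dtx3l read 9.19, 9.07 and 9.11, against 9.55 or more on every M2 array (log2 difference -0.56, SE 0.08, adjusted p = 0.00018), and Parp14 read 9.64, 9.28 and 9.49, also apart from M2 (log2 difference -0.57, SE 0.11, adjusted p = 0.00227). Parp9, the partner of Dtx3l, read 9.64, 9.36 and 9.65 in M2 and 9.40, 9.19 and 9.32 with 10058F4. It overlapped M2 and was not called (log2 difference -0.25, SE 0.09, adjusted p = 0.0757), except with the replicate block (adjusted p = 0.0396), without M2 replicate 2 (adjusted p = 0.0205) or with a trended and robust variance prior (adjusted p = 0.0471). Trim21 read 8.25, 8.17 and 8.06 in M2 and 7.72, 7.54 and 7.44 with 10058F4, all lower (log2 difference -0.59, SE 0.11, adjusted p = 0.00203).

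Epsti1, an interferon-induced gene named for epithelial and stromal interaction, read 9.67, 9.32 and 9.44 in M2 and 8.91, 8.57 and 8.57 with 10058F4, without overlap (log2 difference -0.80, SE 0.12, adjusted p = 0.000257). The Epsti1 probe sets past the filter on low values differed in sign here, with nutlin-3a and in M2 against M0. Eif2ak2 read 8.20, 8.45 and 8.33 in M2 and 7.80, 7.80 and 7.72 with 10058F4, again lower on all arrays (log2 difference -0.55, SE 0.10, adjusted p = 0.000898). Mx1, Dhx58, Zbp1, Parp14, Dtx3l, Eif2ak2, Trim21, Tor3a, Epsti1 and Rnf213 were called lower with each array left out in turn. The second probe set of Rnf213 differed by 0.25 in the opposite direction to the first, and 1 of 3 probe sets of Dhx58 by 0.20. On the mean of a gene's probe sets the calls of Rnf213, Rsad2, Sp100 and Adar were lost, with adjusted p of 0.195, 0.0775, 0.143 and 0.11.

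Of the IFIT genes 1 of 4 was called with 10058F4, Ifit1. It read 6.51, 6.12 and 6.26, below all M2 arrays (log2 difference -0.62, SE 0.18, adjusted p = 0.0236), and the call was lost without M2 replicate 3 or 10058F4 replicate 2 or 3, with adjusted p up to 0.116. Rsad2 read 8.02, 7.71 and 8.12, lower on all arrays (log2 difference -0.66, SE 0.20, adjusted p = 0.0289), and its call was lost without M2 replicate 3 or 10058F4 replicate 1 or 2, with adjusted p up to 0.12. Cmpk2 read 6.70, 6.19 and 6.61 and overlapped M2 (log2 difference 0.03, SE 0.15, adjusted p = 0.917), but its second probe set differed by -0.64. Ifit2, Ifit3 and Ifit1bl1 had differences of -0.54, -0.42 and -0.46 and were not called. With the block Ifit2, Oas3, Parp9, Rtp4 and Daxx were also lower and Ifih1 higher, 21 lower and 2 higher in all, against 11.8% and 11.9% of genes.

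Some calls with 10058F4 were fragile. Oas1a read 10.59, 10.26 and 10.30 in M2 and 10.19, 10.05 and 9.99 with 10058F4, just apart (log2 difference -0.31, SE 0.10, adjusted p = 0.0401), and lost its call without M2 replicate 1 or 3 or 10058F4 replicate 2 or 3, with adjusted p up to 0.184. Sp100 read 7.22, 7.23 and 6.96, below M2 (log2 difference -0.42, SE 0.10, adjusted p = 0.00911), but its other probe set differed by 0.02, and the call was lost without 10058F4 replicate 3 (adjusted p = 0.0504). Usp18 (log2 difference -0.48, SE 0.14, adjusted p = 0.0222) lost its call without M2 replicate 1 or 3 or 10058F4 replicate 2 or 3, with adjusted p up to 0.0901, and Adar (log2 difference -0.27, SE 0.07, adjusted p = 0.0121) without M2 replicate 1 or 3, with adjusted p up to 0.0568. Helz2 was the member called higher: it read 7.29, 7.23 and 7.43 in M2 and 8.10, 7.59 and 7.81 with 10058F4, with no overlap (log2 difference 0.52, SE 0.15, adjusted p = 0.0217). That call was lost without M2 replicate 1, M2 replicate 2, 10058F4 replicate 1 or 10058F4 replicate 3, with adjusted p up to 0.111. Bst2 read 10.39, 10.13 and 9.88, overlapping M2 (log2 difference -0.17, SE 0.15, adjusted p = 0.468).

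Across both agents 23 members were called lower with at least 1, against 12.1% of all genes. Ifit1, Rsad2, Dhx58, Eif2ak2 and Rnf213 were called lower in M2 against M0 and lower again with each agent. Of these, Dhx58 alone kept each of those calls with each array left out in turn. Its nutlin-3a call was lost on the mean of its probe sets. Ifit2, Ifit3, Ifit1bl1, Oas2, Cmpk2, Rtp4 and Daxx were called lower in M2 and again with nutlin-3a. Mx1, Oas1a, Usp18, Parp14 and Sp100 were called lower in M2 and again with 10058F4. A further 13 members fell in M2 and were not called lower with either agent, among them Oasl1, Oasl2, Isg20, Samd9l, Xaf1 and Herc6. Zbp1 and Epsti1 were called lower with both agents although M2 against M0 was not called, and Tor3a fell with both agents after a rise in M2. Mx2, Parp9 and Bst2 were called in none of these comparisons with M2. The lowest of the 5 group means was that of the nutlin-3a group for 20 members, of the 10058F4 group for 17 and of M2 itself for 2. Neither these counts nor those of the patterns from M2 to the agents were made for all genes tested. They describe the members and do not show a trait particular to them.

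A member called with one agent and not with the other is not shown to differ between them, so the agents were compared directly. Of 39 members 4 were called higher with nutlin-3a than with 10058F4, against 4.24% of genes, and 3 lower, against 2.72%, and 32 were not called. With quantile normalization repeated the shares of all genes were 3.55% and 3.44%. The members' median difference was -0.02. Mx1 was the furthest apart: nutlin-3a arrays read 6.61, 5.93 and 6.13 and 10058F4 arrays 5.17, 4.58 and 4.50, which did not overlap, a 2.77-fold difference (log2 difference 1.47, SE 0.20, adjusted p = 0.000389). It was the member at least 2-fold higher, against 0.489% of genes. Tor3a was higher with nutlin-3a too (log2 difference 0.59, SE 0.11, adjusted p = 0.00539), as was Dtx3l (log2 difference 0.38, SE 0.08, adjusted p = 0.00965), which read 9.54, 9.52 and 9.44 with nutlin-3a. Oas1a read 10.52, 10.34 and 10.42 with nutlin-3a, above all 10058F4 arrays (log2 difference 0.35, SE 0.10, adjusted p = 0.0483), but the call was lost with any of the 6 arrays left out, with adjusted p of 0.0562 to 0.184.

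Helz2 was lower with nutlin-3a, at 7.13, 7.03 and 7.21, than on any 10058F4 array (log2 difference -0.71, SE 0.15, adjusted p = 0.0083). Ifit1 was lower with nutlin-3a (log2 difference -0.70, SE 0.18, adjusted p = 0.0277) and so was Cmpk2 (log2 difference -0.64, SE 0.15, adjusted p = 0.0199), both without overlap. Mx1, Dtx3l, Tor3a and Helz2 kept their calls with each array left out, whereas Ifit1 lost its call without nutlin-3a replicate 2 or 3 or 10058F4 replicate 1 or 3 (adjusted p up to 0.13). Cmpk2 lost its call without nutlin-3a replicate 1 or 2 or 10058F4 replicate 1 or 3 (adjusted p up to 0.102). The Dtx3l call was lost on the mean of its probe sets (0.28, adjusted p = 0.0607). For Cmpk2 the other probe set gave a smaller difference of -0.29. With the replicate block 7 were higher and 7 lower, against 5.41% and 3.58% of genes, adding Ifit2, Ifit3, Ifih1 and Rtp4 as lower and Bst2, Trim21 and Epsti1 as higher with nutlin-3a. Trim21 read 7.90, 7.88 and 7.73 with nutlin-3a, each array above the 10058F4 arrays (log2 difference 0.27, SE 0.11, adjusted p = 0.215).

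**Figure D4:**
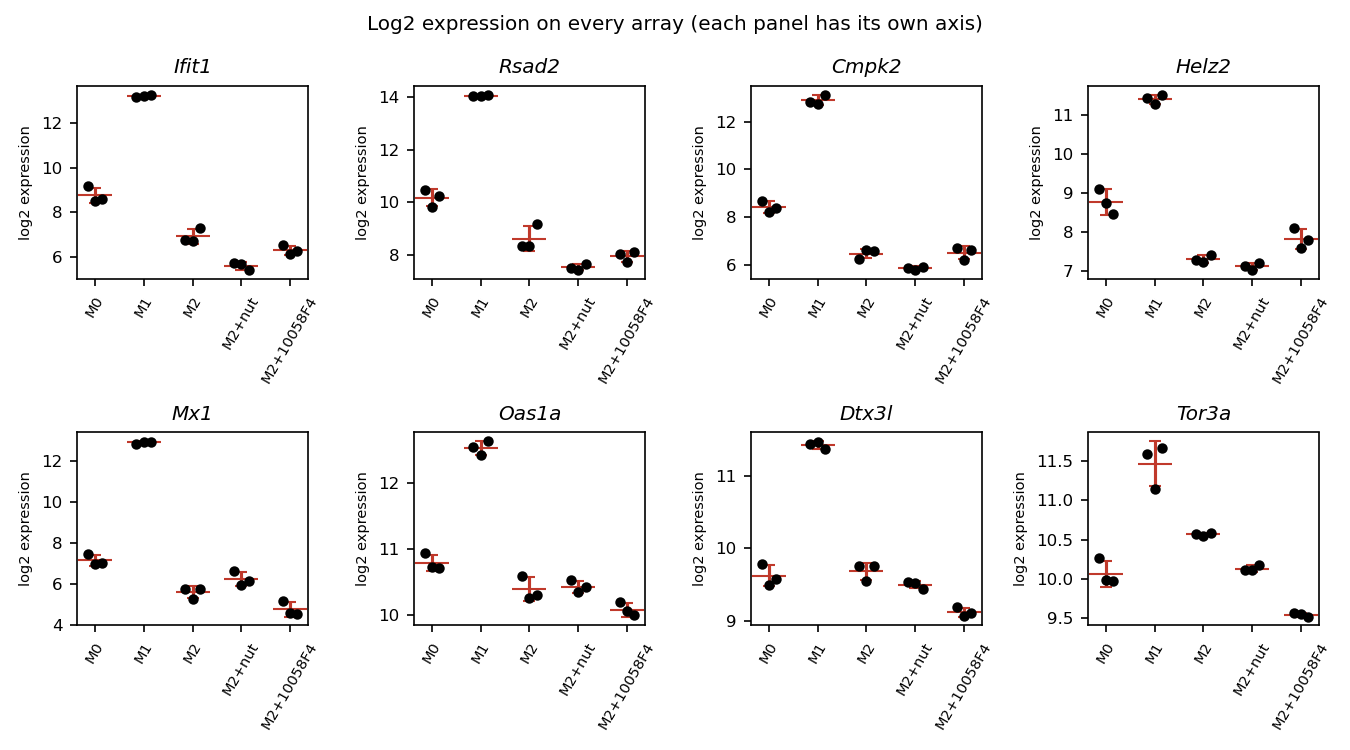
Log2 expression on every array (vertical axis, own range in each panel) in the 5 groups (horizontal axis) for 8 interferon-stimulated genes, with 1 point per array and the group mean. Ifit1 and Rsad2 step down from M0 to M2 and to both agents, Mx1 is higher with nutlin-3a than in M2 and lower with 10058F4, and Tor3a is higher in M2 than in M0 and lowest with 10058F4.

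Across the 39 members the difference of M2 from M0 went with the difference between the agents, with Pearson's r of 0.52 and Spearman's rho of 0.65. Cmpk2, Ifit1 and Helz2 were among the members furthest below M0 in M2 cells and were lower with nutlin-3a than with 10058F4. Mx1 also lay well below M0 and was higher with nutlin-3a. Over all 13703 genes the same values were 0.099 and -0.024. No array enters both differences, but all arrays share one normalization and the genes are not independent, so this is a description. The rise in M1 went with neither agent's difference (r of -0.005 for nutlin-3a and 0.083 for 10058F4).

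Other genes of the pathway were counted by list, and the counts are to be read against the shares of all genes tested. Those called higher and lower were 33.6% and 39.1% in M1 against M0, 12.7% and 18.4% in M2 against M0, 9.56% and 5.85% with nutlin-3a and 10.6% and 10.2% with 10058F4. Counts in lists this short that lie near those shares show nothing about a list. Of 7 interferon and receptor genes tested, 5 rose and 2 fell in M1. Ifnb1, which encodes interferon-beta, rose by 1.25, SE 0.15 and Ifngr1, a chain of the interferon-gamma receptor, had a difference of -1.50, SE 0.06. In M2 2 rose and 1 fell, with Ifngr1 at -0.64, SE 0.06. With nutlin-3a 1 rose and 2 fell, and with 10058F4 also 1 and 2. The receptor chain Ifnar1 was lower with nutlin-3a (-0.48, SE 0.09) and with 10058F4 (-0.61, SE 0.09), and Ifngr1 was higher with 10058F4 (1.40, SE 0.06).

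Among 10 JAK, STAT and IRF genes tested, 7 rose and 1 fell in M1, led by Irf7, the factor that amplifies interferon production (3.78, SE 0.29), and Irf1 (2.80, SE 0.08). In M2 3 rose and 2 fell. Irf9, the DNA-binding part of the complex that acts on response elements, fell in M2 (-0.72, SE 0.11), while Jak2 and Irf1 rose (1.78, SE 0.07 and 1.10, SE 0.08). Irf5, which drives inflammatory genes in macrophages, fell with nutlin-3a (-0.74, SE 0.07) and with 10058F4 (-1.09, SE 0.07). No member of this list rose with either agent, and 2 fell with nutlin-3a and 4 with 10058F4.

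Of 9 adaptors and kinases upstream of interferon, 6 rose and 3 fell in M1, and none rose and 5 fell in M2. Trim25, the ligase that activates RIG-I, fell in M2 (-1.32, SE 0.08), as did the kinase Ikbke (-0.88, SE 0.12) and the RNA receptor Tlr3 (-0.65, SE 0.10). With nutlin-3a 1 rose and none fell, and with 10058F4 3 rose and 2 fell, including Ikbke (-1.06, SE 0.12). Of 5 inhibitors of interferon signalling 4 rose in M1 and 2 in M2. Socs1, which blocks JAK kinases, rose in both M1 (4.88, SE 0.08) and M2 (2.95, SE 0.08). The phosphatase Ptpn6 (SHP-1) was lower with nutlin-3a (-0.85, SE 0.09) and with 10058F4 (-1.54, SE 0.09).

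Of 20 other interferon-stimulated genes tested, 19 rose in M1. In M2 11 of them fell and 1 rose, with a median of -0.42. Gbp3, an antimicrobial GTPase, and the chemokine Cxcl10 fell in M2 (-1.27, SE 0.14 and -1.11, SE 0.21). Cxcl10 fell again with nutlin-3a (-1.44, SE 0.21) and with 10058F4 (-1.76, SE 0.21). With nutlin-3a 4 fell and 2 rose, and with 10058F4 7 fell and 1 rose. Ifi204, a DNA-binding sensor, was the one higher with both (0.66, SE 0.20 and 0.74, SE 0.20).

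Of 14 genes that mainly answer interferon-gamma, 13 rose and 1 fell in M1. In M2 7 fell and 2 rose, with nutlin-3a 5 fell and none rose, and with 10058F4 7 fell and none rose. Fcgr1, the high-affinity IgG receptor, fell in M2 (-1.10, SE 0.14). The medians of this list were 3.46 in M1, -0.38 in M2, -0.38 with 10058F4 and -0.23 with nutlin-3a, beside 2.26, -0.72, -0.31 and -0.32 for the 39 members in the same order.

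Fewer interferon-responding cells and less RNA per cell cannot be told apart in these bulk samples. Plasmacytoid dendritic cells make much type I interferon, and the summed linear level of their 7 markers was 961.6 to 978.7 in M0, 615.6 to 806.4 in M1, 719.8 to 741.7 in M2, 705.2 to 722.7 with nutlin-3a and 698.7 to 755.1 with 10058F4. Of these 7 markers 3 were called higher and 2 lower in M1, 2 higher and 2 lower in M2, and 1, Klk1, higher with each agent. Siglech was called in none of these comparisons, and Tcf4 was lower in M1 and M2 than in M0. The 4 B cell markers with a probe set summed to 110.7 to 122.7 in M2, 86.32 to 94.63 with nutlin-3a and 84.93 to 96.24 with 10058F4, and 2 of the 3 tested were called lower with each agent. Of those 4 markers 3 were above the 40th percentile on every M2 array, 2 on every nutlin-3a array and 1 on every 10058F4 array. Mertk, a macrophage receptor for dying cells, was lower in M2 than in M0 (-1.43, SE 0.09) and higher with both agents (1.29, SE 0.09 and 2.15, SE 0.09), opposite to Ifit1 with the agents. Of the 7 macrophage markers tested it was the one called with either agent, and the medians of all 7 were -0.03 with each agent. Some markers of further cell types were called higher in M1 than in M0, against 33.6% of all genes tested. For conventional dendritic cells 3 of 5 tested were, with Xcr1 at 2.50, SE 0.32. For T and NK cells 3 of 3 were, for neutrophils 4 of 5, for stromal cells 1 of 4 and for B cells 2 of 3. Apart from the B cell list, none of these lists had a member called with either agent. Of 5 T and NK markers with a probe set, 2 were above the 40th percentile on no M1 array. Of 5 neutrophil markers with a probe set, 3 were above it on every M1 array. Gata2, the mast cell and basophil marker tested, was higher in M2 than in M0 (0.61, SE 0.09) and lower with nutlin-3a (-0.36, SE 0.09) and 10058F4 (-0.30, SE 0.09). The other 3 of the 4 such markers with a probe set were above the 40th percentile on no array of any group. The part of these markers in the members' differences was not tested.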

How the data were processed

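Biotin-labelled cRNA of 15 samples was read on one-colour arrays, 1 per sample, per the labels' protocols. The deposited tables hold the authors' log2 values for each probe set, normalized with RMA per the submitters' processing notes. That the logarithm has base 2 was inferred from the range of the values, and neither an RMA version nor a genome build is named. RMA gives all arrays a common distribution of intensities and can so hide a shift shared by most genes.

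Of 45101 probe sets 64 were controls, and the platform annotation gave 1 gene to 34945, several to 932 and none to 9160. Symbols were updated through RefSeq's table of GRCm38.p6, which held 34741 of the IDs, and its promoter windows matched 29 members. The 39 members had 69 probe sets, and 19 members had several. Genes above the 40th percentile of an array (4.34 to 4.52) on at least 3 arrays were tested. Of the members 38 passed it on all 15 arrays, and Ifit1bl1 did so on 1 of 3 nutlin-3a arrays and 2 of 3 10058F4 arrays.

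Samples were grouped and numbered by their titles. A linear model with 5 group means was fitted to the 15 arrays with limma (lmFit, then eBayes, with 10 residual and 3.86 prior degrees of freedom), and p-values were adjusted by Benjamini-Hochberg in each of 6 comparisons. The fit was tested on simulated data. Members and lists were chosen with earlier results of these data known. Any member could be named. Values on every array were given for the called member with the largest difference in each role and comparison and for those against the main direction. Other members with such values, and some pathway genes outside the 3 largest called differences of a list, were chosen after their values were seen.

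Deviations of same-numbered arrays from their group means had correlations of 0.232 to 0.424 (M2, M0), 0.337 to 0.381 (nutlin-3a, M2), 0.308 to 0.368 (10058F4, M2) and 0.341 to 0.408 (nutlin-3a, 10058F4). All exceeded 0.1, so in these comparisons the numbers may pair the samples, a pairing that comes from the data and not from the labels. The main fit, which gave the calls, SEs and adjusted p-values, did not use this pairing. It entered only as the replicate block, an alternative. In comparisons with M1 not all correlations exceeded 0.1 (0.055 to 0.263 with M0, 0.063 to 0.148 with M2). The alternatives were other filters, probe set choices, normalizations and variance models, the 6 compared arrays alone, the replicate block, and each array left out. The software was R 4.3.3, limma 3.58.1, Python 3.11.15, pandas 2.3.3 and matplotlib 3.10.9.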

Additional observations from a re-analysis of the deposited data

How the results depend on the processing

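The members called higher in M1 against M0 and against M2, and the members called lower in M2 and with 10058F4, stayed within 1.5 times their number under every alternative run, except that only 33 members had a probe set without a shared-transcript suffix. Counts of calls against the main direction moved. In M2 against M0, 2 members were higher in place of 1 with the filter at the 60th percentile, with quantile normalization repeated, with the replicate block, and with 2 alternatives chosen after seeing the data (the block without the M0 array of number 1, and arrays centred on the median of the tested genes). With nutlin-3a 1 was higher in place of none with the 60th percentile, with arrays centred on their median and with the replicate block. With 10058F4 2 were higher with the 6 arrays alone or the replicate block. Between the agents 7 were higher and 7 lower with the replicate block. Helz2 and Cmpk2 have no probe set without a shared suffix, so that there none was higher with 10058F4 and 1 was lower between the agents by construction. Sp100 with 10058F4 turned to 0.0227 on those probe sets, which read it by another probe set. With each array left out in turn, the number lower with nutlin-3a was 7 to 14 and the number higher 0 to 1. With 10058F4 it was 11 to 19 lower and 0 to 1 higher, in M2 against M0 1 to 2 higher, and between the agents 1 to 3 lower. Over the 39 members and 6 comparisons, 1307 of 1404 calls or non-calls were kept with an array left out, 85 calls were lost and 12 gained. Under the other alternatives 2241 of 2343 were kept, 41 lost and 61 gained, and no call turned its direction. The replicate block changed no call of M1 against M0 or M2, and beyond those given no other call. The cause of the other changes was not tested.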
